A study of Mus musculus with 24 samples.

Results

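The genes described here are 10 genes of brain endothelium and the blood-brain barrier, measured in the sorted cells of mouse gliomas. They are the rows named Pecam1, Cdh5, Cldn5, Kdr, Flt1, Tek, Abcb1a, Slco1a4, Mfsd2a and Angpt2 among the 55938 genes of the deposited table, and each name matched 1 row. The tumours were raised by delivering PDGFB, the ligand of the platelet-derived growth factor receptors, to cells lining the ventricles of the mouse forebrain before birth, and 12 tumours gave 2 libraries each. Fluorescent cells are called glioma cells, and the cells without fluorescence from the same dissected tissue are called surrounding cells. Brains of 4 asymptomatic mice (tumours 3228A, 3228B, 3228D and 3229B) were collected on days 33 to 34 after transduction. Those of 4 early symptomatic mice (3108C, 3108D, 3109D and 3145A) were collected on days 35 to 50, and those of 4 late symptomatic mice (3054A, 3054B, 3054C and 3057E) on days 100 to 175. All 24 libraries, surrounding cells included, come from brains that carry a PDGFB tumour, so no tumour-free brain enters any comparison. The labels name no strain, no sex and no promoter of the transgene. Glioma cells were chosen by the fluorescent label alone and surrounding cells by its absence, with no marker of vessels in the sort.

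Endothelial cells of the brain line its vessels and form the blood-brain barrier. They are sealed to each other by adherens and tight junctions, take up few vesicles, and carry transporters that expel drugs and bring in nutrients. The growth factor Vegfa acts on them through its receptors Kdr and Flt1, and the angiopoietins act through Tek. Angpt2 is stored and released by endothelial cells at sites of vessel remodelling, where it commonly opposes the action of Angpt1 on Tek. In gliomas these axes are known for their part in vessel growth and in the loss of barrier function.

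Library totals ranged from 9.08e+06 to 1.55e+07 expected counts. Levels are given in CPM, counts scaled to library size with TMM factors. The surrounding cells were a mixed pool: summed levels of 14 microglia markers ranged from 2182 to 22450 CPM, against 130 to 340 CPM for 16 other pan-endothelial genes. In such a pool fewer endothelial cells and less RNA per endothelial cell cannot be told apart. Summed levels of 12 markers of oligodendrocyte precursor cells (OPC) ranged from 13098 to 21352 CPM in glioma cells and from 780 to 15325 CPM in surrounding cells. Tumour 3057E stood apart. Its glioma cells carry a red label where those of the other 11 tumours carry a green one, and their microglia markers summed to 2723 CPM, against 155 to 887 CPM in the other glioma libraries. For tumours 3108D and 3109D the Xist levels of the glioma and the surrounding library went against each other. Xist was at 1588 CPM in glioma cells of 3108D, against 2.08 CPM in its surrounding cells, and at 1.89 CPM in glioma cells of 3109D, against 1077 CPM in its surrounding cells, so that pairs of these tumours are given as coded.

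In surrounding cells all 10 genes were present in every library. Per kilobase of exon, Mfsd2a was the highest at 21.8 ± 14.4 CPM per kb (SD, n = 12), followed by Cldn5 at 13.2 ± 6.89 CPM per kb. Angpt2 at 7.98 ± 5.34, Cdh5 at 7.29 ± 5.08 and Pecam1 at 5.19 ± 2.10 CPM per kb came next. Flt1, Abcb1a, Slco1a4 and Kdr lay close together at 3.58 ± 1.81, 3.44 ± 1.83, 3.29 ± 2.61 and 2.95 ± 1.20 CPM per kb. Tek was the lowest at 1.20 ± 0.800 CPM per kb. Among neighbours in this order, Tek and Kdr differed by more than the larger of their SDs, and every other step was within it. In glioma cells the order per kilobase was another one: Mfsd2a averaged 36.8 ± 32.6, Angpt2 4.65 ± 5.19 and Flt1 1.41 ± 2.62 CPM per kb, while the other 7 genes averaged between 0.111 CPM per kb for Tek and 0.538 CPM per kb for Kdr (n = 12 each).

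**Figure D1:**
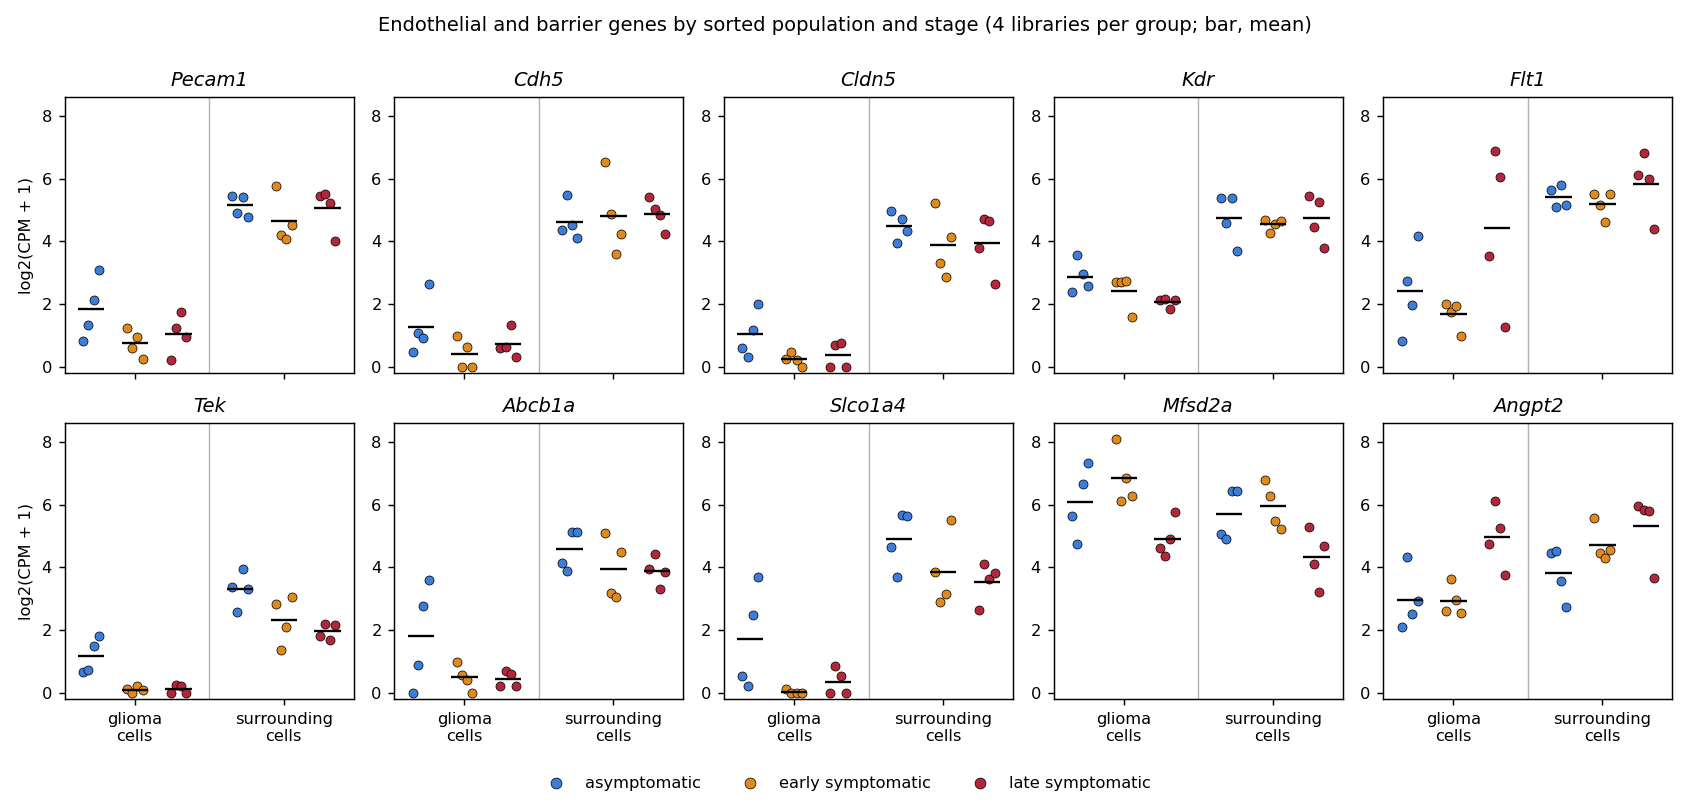
Levels of the 10 genes in all 24 libraries as log2(CPM + 1), with glioma cells left of surrounding cells in each panel, 1 point per library coloured by stage and a bar at the mean of 4 libraries. Points of glioma cells lie near 0 for Cdh5, Cldn5 and Tek, spread upward in late gliomas for Flt1 and Angpt2, and reach or pass those of surrounding cells for Mfsd2a.

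Over all stages, 9 of the 10 genes were lower in glioma cells than in surrounding cells at an adjusted p under 0.05 by edgeR's quasi-likelihood test, where 24.2% of all 18810 genes tested were called lower. No gene of the group was called higher, where 22% of all genes were. The median log2 fold change of the 10 genes was -4.40, against 0.06 over all genes tested. Of the 10 genes, 7 were lower in glioma cells in 12 of 12 tumours, namely Pecam1, Cdh5, Cldn5, Kdr, Tek, Abcb1a and Slco1a4. The other 3, Flt1, Angpt2 and Mfsd2a, were not. For 4 genes, Pecam1, Cdh5, Cldn5 and Kdr, the ranges of the 2 populations did not overlap at all. How many of all genes were lower in 12 of 12 tumours, or without overlap, was not counted. Microglia markers were also lower: their summed level in glioma cells was a median of 2.66% of that in surrounding cells of the same tumour, and their part in the result was not tested.

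The junction genes were nearly absent from glioma cells. Pecam1 encodes an adhesion molecule of endothelial contacts that is also carried by platelets and some leukocytes, Cdh5 the cadherin of endothelial adherens junctions, and Cldn5 the main claudin of tight junctions in brain endothelium. Pecam1 lay between 0.169 and 7.43 CPM with a median of 1.14 in glioma cells, and between 15.3 and 53.7 CPM with a median of 32.9 in surrounding cells. Cdh5 lay between 0 and 5.17 CPM with a median of 0.544 in glioma cells, and between 11.2 and 90.6 CPM with a median of 24.8 in surrounding cells. Cldn5 lay between 0 and 2.99 CPM with a median of 0.324 in glioma cells, and between 5.26 and 35.98 CPM with a median of 17.7 in surrounding cells. In each of the 3 genes the highest glioma library, that of asymptomatic tumour 3229B, was below the lowest surrounding library. Log2 fold changes of glioma over surrounding cells were -4.49 ± 0.41 for Pecam1, -5.23 ± 0.53 for Cdh5 and -5.44 ± 0.53 for Cldn5 (SE, 12 libraries each, edgeR adjusted p of 1.6e-08, 5.9e-08 and 3.9e-08). Cldn5 was at 0 in 3 glioma libraries and Cdh5 in 2.

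The receptors differed in glioma cells: Tek was near-absent, Kdr was found in every library, and Flt1 varied widely between tumours. Tek, the receptor tyrosine kinase of the angiopoietins, lay between 0 and 2.55 CPM with a median of 0.154 in glioma cells, and between 1.58 and 14.3 CPM with a median of 4.30 in surrounding cells. Its log2 fold change was -4.46 ± 0.41 (SE, edgeR adjusted p = 2e-08), although the 2 populations overlapped through asymptomatic gliomas 3228D and 3229B at 1.83 and 2.55 CPM. Kdr, the main signalling receptor of Vegfa, lay between 1.97 and 10.9 CPM with a median of 4.58 in glioma cells, and between 12.0 and 42.2 CPM with a median of 23.5 in surrounding cells. It was never at 0, with 30 to 130 counts in each glioma library. Its log2 fold change of -2.51 ± 0.25 (SE, edgeR adjusted p = 3.9e-08) was smaller in size than that of the junction genes. In glioma cells Kdr stood at a median of 19.6% of its level in surrounding cells of the same tumour. On the same measure Flt1 stood at 9.56%, Tek at 4.90%, Pecam1 at 4.07% and Cdh5 at 1.80%. The part of other cells in these levels was not tested. Flt1, the receptor that binds Vegfa tightly and also exists as a soluble decoy, lay between 0.751 and 116 CPM with a median of 2.98 in glioma cells, and between 19.9 and 111 CPM with a median of 44.6 in surrounding cells. Its populations overlapped, and its log2 fold change was -2.37 ± 0.50 (SE, edgeR adjusted p = 0.00057), lower in glioma cells in 10 of 12 tumours.

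The ligand Angpt2 was present in every glioma library. It lay between 3.30 and 68.4 CPM with a median of 9.04 in glioma cells, and between 5.68 and 61.9 CPM with a median of 21.7 in surrounding cells. The populations overlapped, and Angpt2 was lower in glioma cells in 9 of 12 tumours and higher in 3. The log2 fold change was -1.05 ± 0.34 (SE, edgeR adjusted p = 0.015). Without tumour 3108C, whose surrounding cells held 47.1 CPM, it was -0.88 with an adjusted p of 0.0548, and the call was lost.

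The transporters differed among themselves. Abcb1a, the drug efflux pump P-glycoprotein of rodent brain vessels, lay between 0 and 11.1 CPM with a median of 0.513 in glioma cells, and between 7.38 and 34.4 CPM with a median of 15.6 in surrounding cells. Slco1a4, an organic anion transporter of the rodent barrier, lay between 0 and 12.0 CPM with a median of 0.128 in glioma cells, and between 5.27 and 49.5 CPM with a median of 13.4 in surrounding cells. Both overlapped between the populations only through asymptomatic glioma 3229B, which held 11.1 CPM of Abcb1a and 12.0 CPM of Slco1a4. The log2 fold changes were -4.34 ± 0.57 for Abcb1a and -5.77 ± 0.70 for Slco1a4 (SE, edgeR adjusted p of 2.1e-06 and 6.7e-07). Abcb1a counts were not whole numbers in 10 glioma and 12 surrounding libraries, so part of its reads was split by estimate. Which genes shared those reads was not tested. Its paralogue Abcb1b was at 6.66 to 15.6 CPM in glioma cells and at 9.64 to 36.5 CPM in surrounding cells. Mfsd2a had the opposite sign. This carrier of lysophospholipids, which brings omega-3 fatty acids into the brain and limits vesicle transport across its endothelium, lay between 19.5 and 272 CPM with a median of 61.3 in glioma cells, and between 8.26 and 110.0 CPM with a median of 37.5 in surrounding cells. It was higher in glioma cells in 9 of 12 tumours, and its log2 fold change of 0.68 ± 0.33 did not pass the test (SE, edgeR adjusted p = 0.098). With the tumour as a replicate block the value was 0.64 ± 0.21 with an edgeR adjusted p of 0.019, and Mfsd2a was then called higher, as were 28.6% of all genes in that fit.

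Promoter sequences from RefSeq, GRCm38.p6, covering 250 bases before to 50 bases after the annotated start, were held for 7 of the 10 genes. Those of 4 genes are printed: Flt1 and Kdr, receptors of the same ligand with unlike levels in late gliomas, and Mfsd2a and Cldn5, the barrier genes with the highest levels per kilobase in surrounding cells, of which glioma cells held much Mfsd2a and little Cldn5. Each runs from 5′ to 3′ on the strand of its gene, with capitals for every match to a motif searched on both strands.
Flt1, chr5:147725962-147726261, minus strand: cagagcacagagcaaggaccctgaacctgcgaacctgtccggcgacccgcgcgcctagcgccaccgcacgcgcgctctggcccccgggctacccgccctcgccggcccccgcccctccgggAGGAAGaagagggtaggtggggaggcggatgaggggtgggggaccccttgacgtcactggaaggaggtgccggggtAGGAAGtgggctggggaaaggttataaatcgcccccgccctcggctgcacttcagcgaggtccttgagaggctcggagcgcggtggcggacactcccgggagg
Kdr, chr5:75978406-75978705, minus strand: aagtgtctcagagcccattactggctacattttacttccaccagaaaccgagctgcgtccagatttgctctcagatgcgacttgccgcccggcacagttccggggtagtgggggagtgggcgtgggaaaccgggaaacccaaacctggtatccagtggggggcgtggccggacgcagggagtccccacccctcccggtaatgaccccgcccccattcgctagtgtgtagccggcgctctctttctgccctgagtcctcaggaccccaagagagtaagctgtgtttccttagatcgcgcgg
Mfsd2a, chr4:122961139-122961438, minus strand: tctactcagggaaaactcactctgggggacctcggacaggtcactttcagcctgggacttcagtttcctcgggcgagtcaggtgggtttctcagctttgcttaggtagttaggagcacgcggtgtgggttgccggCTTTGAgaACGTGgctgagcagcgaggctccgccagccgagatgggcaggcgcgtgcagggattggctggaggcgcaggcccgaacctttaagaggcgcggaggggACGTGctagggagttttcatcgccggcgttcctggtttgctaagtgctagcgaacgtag
Cldn5, chr16:18776597-18776896, plus strand: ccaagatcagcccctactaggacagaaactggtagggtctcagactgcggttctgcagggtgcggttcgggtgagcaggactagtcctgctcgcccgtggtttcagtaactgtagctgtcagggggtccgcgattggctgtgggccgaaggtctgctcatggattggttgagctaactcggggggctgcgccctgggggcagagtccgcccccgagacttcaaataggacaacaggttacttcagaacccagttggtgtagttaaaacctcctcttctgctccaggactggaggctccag
The motifs were CGGAAG and AGGAAG, cores bound by ETS factors such as those of endothelium. Further motifs were ACGTG, a form of the core bound by hypoxia-inducible factors (HIF), and CTTTGA, the core of TCF/LEF factors of the Wnt pathway. The last were GTAAACA of forkhead (FOX) factors and ACAAAG of SOX factors. The Flt1 window held AGGAAG at bases 122 and 198 and no other motif of the set. The Mfsd2a window held ACGTG at bases 144 and 242 and CTTTGA at base 136. The windows of Kdr and Cldn5 held none of the 6 motifs. GCGTG, another form of the HIF core, was not searched or capitalised. It occurs on either strand in the printed windows of Flt1, Kdr and Mfsd2a. Of all 32851 promoter windows of this length in the RefSeq table, 46.5% held an ETS motif, 19.6% the HIF motif, 16.003% the TCF/LEF motif, 3.65% the FOX motif and 18.7% the SOX motif, so a single match is common. Among the windows not printed, Slco1a4 held 1 ETS match, Tek 1 SOX match and Abcb1a 2 ETS, 2 TCF/LEF, 1 FOX and 2 SOX matches. The Mfsd2a start lies on chromosome 4 and those of Flt1, Kdr and Abcb1a on chromosome 5. Cldn5 lies on chromosome 16, Tek on chromosome 4, Slco1a4 on chromosome 6, Pecam1 on chromosome 11, and Cdh5 and Angpt2 on chromosome 8. In GENCODE M21, Angpt2 spans chr8:18690263-18741562 inside Mcph1 on the other strand, without shared exon bases, and Abcb1a spans chr5:8660077-8748575 and shares exon bases with Gm42686. The strand setting of the authors' counting is not given in the sources used here, so reads of such neighbours could not be separated.

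The populations differed at each stage. In asymptomatic mice 7 of the 10 genes were lower in glioma cells (12.5% of all genes were), in early symptomatic mice 9 (12.4%) and in late symptomatic mice 7 (19.9%). Kdr was called at each stage, with log2 fold changes of -2.11 ± 0.42, -2.26 ± 0.42 and -3.14 ± 0.44 in asymptomatic, early and late mice (SE, edgeR adjusted p of 0.0013, 0.00058 and 2.5e-05). Pecam1, Cdh5, Cldn5, Tek and Slco1a4 were also called at each stage. Pecam1 had log2 fold changes of -3.42 ± 0.66, -5.19 ± 0.74 and -4.84 ± 0.71 across the same stages, and Tek -2.72 ± 0.59, -5.65 ± 0.77 and -5.00 ± 0.76 (SE, edgeR adjusted p at most 0.0028). Flt1 passed the test in asymptomatic and early mice and Angpt2 in early mice, and neither did in late mice. With the replicate block the late value of Flt1 was -1.45 ± 0.81, also without passing (SE, edgeR adjusted p = 0.17). Without both 3108D and 3109D, which left fewer early tumours, Flt1 at -4.54 and Angpt2 at -2.86 did not pass (edgeR adjusted p of 0.0871 and 0.0815). Both values were larger in size than with all tumours, where Flt1 was at -4.01. Flt1 kept its early call in each fit without a single tumour. Angpt2, at -1.97 ± 0.61 in early mice (SE, edgeR adjusted p = 0.032), also lost its call without 3108C, 3109D or 3145A alone (adjusted p of 0.279, 0.0804 and 0.117).

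**Figure D2:**
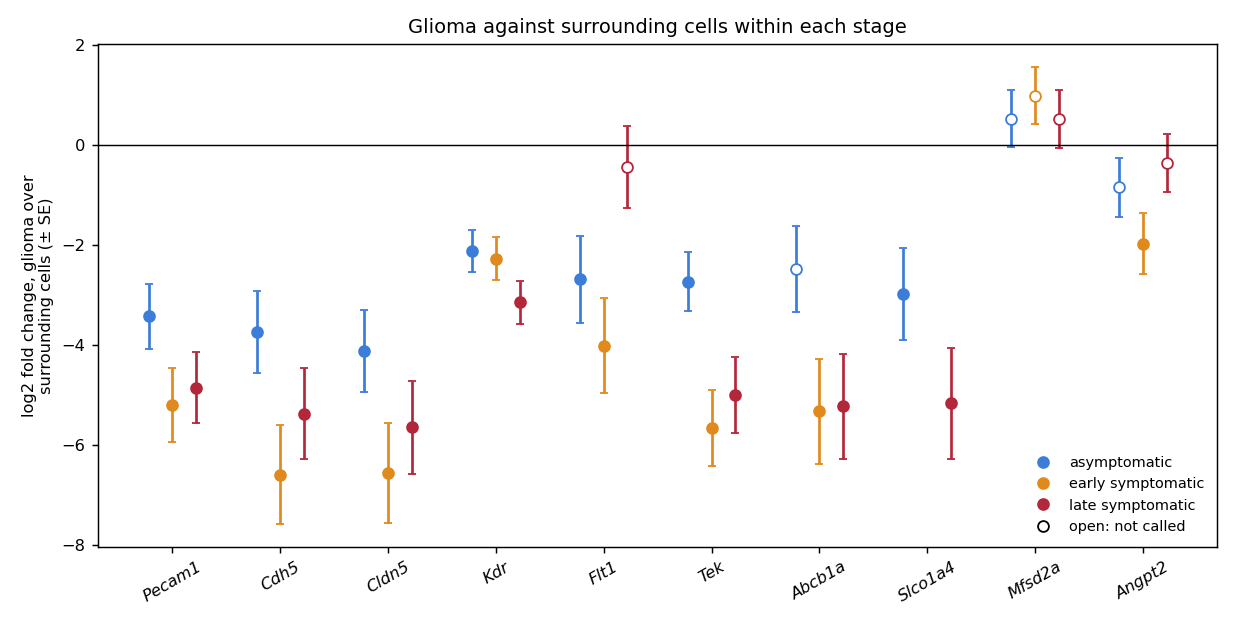
Log2 fold change of glioma over surrounding cells for each gene and stage from edgeR, without the tumour as a block. Bars are 1 SE, and points are filled where the adjusted p was under 0.05 and open otherwise. Late values of Flt1 and Angpt2 are open and close to 0, at -0.43 and -0.35, while Mfsd2a is open and above 0 at each stage; the early value of Slco1a4 is left out because the 4 glioma libraries held 1 count in all.

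Asymptomatic gliomas carried the most RNA of the near-absent genes. Slco1a4 was at 0.45, 0.168, 4.53 and 12.0 CPM in glioma cells of 3228A, 3228B, 3228D and 3229B, against 24.4, 12.0, 49.5 and 48.8 CPM in their surrounding cells. In the early mice, 1 Slco1a4 count was found over all 4 glioma libraries, against 767 in the 4 surrounding libraries. Abcb1a was at 0, 0.838, 5.81 and 11.1 CPM in the 4 asymptomatic glioma libraries, against 16.8, 13.6, 34.1 and 34.4 CPM in surrounding cells. Tumours 3228D and 3229B were thus the highest for both transporters in both populations. Other pan-endothelial genes were also most complete there, with none of 16 at 0 in glioma cells of 3228D and 3229B and from 1 to 6 of 16 at 0 in the other 10 glioma libraries, and their part in the result was not tested. Abcb1a did not pass the test in asymptomatic mice, with a log2 fold change of -2.47 ± 0.86 (SE, edgeR adjusted p = 0.061), and with the replicate block it did at -3.36 ± 0.82 (edgeR adjusted p = 0.015, with 13.4% of all genes called lower). Without tumour 3229B the asymptomatic log2 fold changes were -4.40 for Pecam1, -5.23 for Cdh5, -5.12 for Cldn5, -3.92 for Flt1 and -4.11 for Slco1a4. The asymptomatic calls of Flt1 (-2.68 ± 0.87, SE, edgeR adjusted p = 0.044) and Slco1a4 (-2.96 ± 0.92, SE, edgeR adjusted p = 0.033) were lost when single tumours were left out, in 8 and 4 of 12 such fits, with adjusted p up to 0.178 and 0.125.

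In glioma cells Flt1 and Angpt2 had higher mean levels in late than in early tumours and Mfsd2a a lower one, without passing the test in edgeR. Flt1 was at 0.751, 5.62, 2.94 and 17.2 CPM in the asymptomatic gliomas 3228A, 3228B, 3228D and 3229B, at 3.02, 2.38, 2.84 and 0.985 CPM in the early gliomas 3108C, 3108D, 3109D and 3145A, and at 10.6, 116, 65.7 and 1.404 CPM in the late gliomas 3054A, 3054B, 3054C and 3057E. Late gliomas 3054A, 3054B and 3054C were above all 4 early ones, and 3057E was among the early ones. In 3054B and 3054C the glioma level was close to that of surrounding cells, at 105% and 104%. The log2 fold change of late over early gliomas was 4.38 ± 1.21 (SE, 4 libraries each, edgeR adjusted p = 0.11), and that of late over asymptomatic gliomas 2.85 ± 1.11 (edgeR adjusted p = 0.26).

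Angpt2 followed a like order. It was at 3.30, 18.9, 4.69 and 6.70 CPM in the asymptomatic gliomas, at 5.06, 11.3, 6.77 and 4.79 CPM in the early ones, and at 25.9, 68.4, 37.4 and 12.5 CPM in the late ones, in the same order of tumours. Every late glioma was above every early glioma, and 3057E was the lowest of the late ones. Among all genes, the share separated in this way was not counted. The log2 fold change of late over early gliomas was 2.36 ± 0.60 (SE, edgeR adjusted p = 0.096) and that of late over asymptomatic gliomas 2.10 ± 0.59 (edgeR adjusted p = 0.15). Glioma cells of 3054B held more Angpt2 than their surrounding cells, at 122%.

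Mfsd2a was lowest in late gliomas. It was at 49.3, 25.7, 99.5 and 162 CPM in the asymptomatic gliomas, at 272, 69.3, 115 and 77.6 CPM in the early ones, and at 23.6, 19.5, 29.1 and 53.3 CPM in the late ones. Every late glioma was below every early glioma. The log2 fold change of late over early gliomas was -2.07 ± 0.60 (SE, edgeR adjusted p = 0.12) and that of late over asymptomatic gliomas -1.41 ± 0.59 (edgeR adjusted p = 0.29). Kdr, at 3.37, 3.48, 2.57 and 3.39 CPM, varied little among late gliomas, all below the asymptomatic range of 4.20 to 10.9 CPM. Its log2 fold change of late over asymptomatic gliomas was -1.05 ± 0.39 (SE, edgeR adjusted p = 0.23). How many of all genes separated between stages as Mfsd2a and Kdr did was not counted.

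Abcb1a, Cdh5 and Pecam1 had lower mean levels in symptomatic than in asymptomatic gliomas, again without passing the test. Abcb1a, at 0, 0.838, 5.81 and 11.1 CPM in the asymptomatic gliomas, was at 0.977, 0.496, 0.315 and 0 CPM in the early ones and at 0.169, 0.625, 0.530 and 0.165 CPM in the late ones. Its asymptomatic range thus spans both symptomatic ranges and extends above them through 3228D and 3229B. The log2 fold changes were -3.34 ± 1.27 for early and -3.55 ± 1.28 for late over asymptomatic gliomas (SE, edgeR adjusted p of 0.94 and 0.22). Early over asymptomatic gliomas gave -2.30 ± 1.09 for Cdh5 and -2.14 ± 0.83 for Pecam1 (SE, edgeR adjusted p of 0.94 for both). Late over asymptomatic gliomas gave -1.41 ± 1.03 and -1.45 ± 0.80 (SE, edgeR adjusted p of 0.55 and 0.42). In asymptomatic gliomas Cdh5 was at 0.375, 1.09, 0.875 and 5.17 CPM and Pecam1 at 0.751, 1.51, 3.34 and 7.43 CPM, both highest in 3229B. Under other settings the early over asymptomatic values shrank to as little as -0.411 for Cdh5 and -0.117 for Pecam1. The late over asymptomatic values changed sign in some, reaching 0.552 and 0.223.

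**Figure D3:**
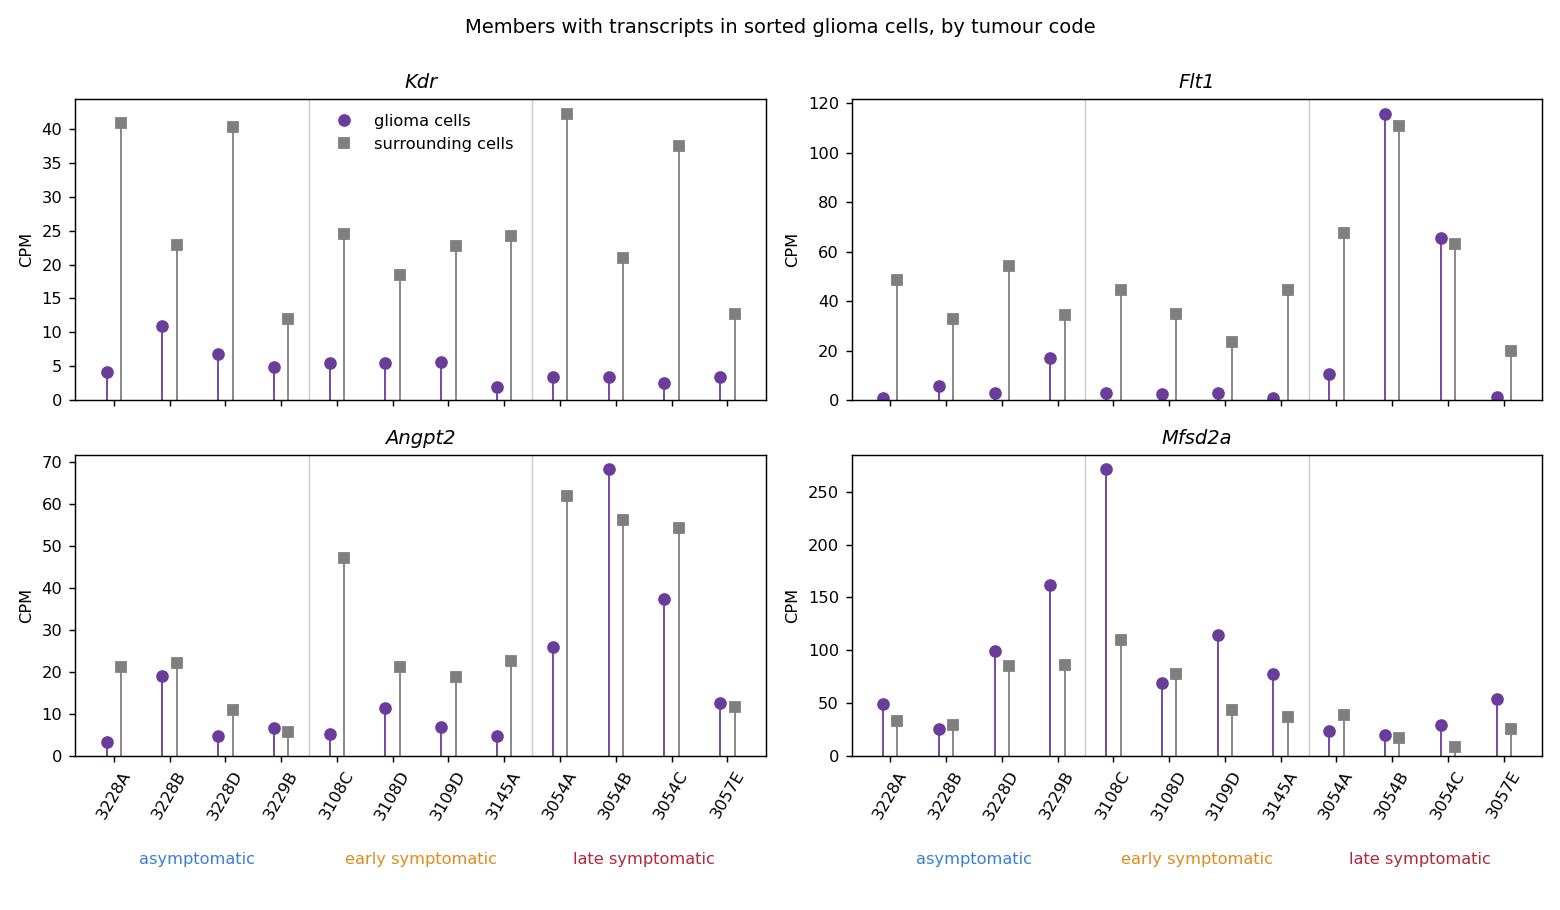
CPM of Kdr, Flt1, Angpt2 and Mfsd2a by tumour, ordered by stage, with circles for glioma cells and squares for surrounding cells. Circles of Flt1 meet the squares in 3054B and 3054C, where Kdr circles stay at 3.48 and 2.57 CPM. The Angpt2 circle lies above its square in 3054B, at 68.4 against 56.2 CPM, and below it in 3054C, at 37.4 against 54.2 CPM.

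None of the 7 genes that passed the count filter in glioma cells was called between stages by edgeR. Cldn5, Tek and Slco1a4 did not pass that filter. Of all 16494 genes tested, 0.273% were called between late and early gliomas, 0.158% between late and asymptomatic gliomas and 0% between early and asymptomatic gliomas. At an unadjusted p under 0.05 there were 2 higher and 1 lower of 7 between late and early gliomas, 2 higher and 3 lower between late and asymptomatic gliomas, and 0 higher and 2 lower between early and asymptomatic gliomas. Of all 16494 genes, 3243, 2444 and 810 were under that limit in the same comparisons, in this order. DESeq2 called Flt1 and Angpt2 higher and Mfsd2a lower in late than in early gliomas, with adjusted p of 0.00504, 0.0019 and 0.00562 (6% of all genes were called), and Angpt2 higher in late than in asymptomatic gliomas with 0.0103 (3.5%). The calls also turned on 1 tumour. Without 3057E, edgeR gave log2 fold changes of late over early gliomas of 4.77 for Flt1, 2.63 for Angpt2 and -2.49 for Mfsd2a, all called (adjusted p of 0.00955, 0.00942 and 0.0278), in a fit where 17.2% of all genes were called. Late over asymptomatic gliomas without 3057E gave 3.24 for Flt1 and 2.37 for Angpt2 (edgeR adjusted p of 0.0367 and 0.0155), where 14.7% of all genes were called.

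Levels of endothelial markers in late gliomas are given beside these values. Pecam1 was at 0.169, 1.34, 2.35 and 0.908 CPM and Cdh5 at 0.506, 0.536, 1.51 and 0.248 CPM in late gliomas 3054A, 3054B, 3054C and 3057E. Their log2 fold changes of late over early gliomas were 0.69 ± 0.83 and 0.89 ± 1.10 (SE, edgeR adjusted p of 0.67 and 0.68). Of 16 other pan-endothelial genes 8 passed the count filter in glioma cells and 0 were called, with a median log2 fold change of 0.37, against 0.04 over all genes tested. Ecscr at 1.75 ± 1.04, Eng at 1.37 ± 0.85, Erg at 1.17 ± 0.67 and Egfl7 at 0.87 ± 0.63 had values above 0, and Ptprb, Clec14a, Ramp2 and Vwf had values below 0, to -1.13 ± 0.36 for Vwf (SE). Whether Flt1 and Angpt2 differ from these genes was not tested. The 16 other pan-endothelial genes summed to 31.0 to 70.1 CPM in late gliomas, to 56.8 to 81.2 CPM in early and to 49.2 to 95.8 CPM in asymptomatic gliomas, with 1 to 6, 2 to 6 and 0 to 3 of them at 0. Markers of monocytes and macrophages, 10 genes, summed to 26.3 to 497 CPM in late gliomas against 30.01 to 57.3 CPM in early ones. Vegfa itself was at 210, 190, 218 and 20.5 CPM in the late gliomas, 3057E last, against 25.02 to 98.4 CPM in early and 22.5 to 50.3 CPM in asymptomatic gliomas. Its log2 fold change of late over early gliomas was 1.76 ± 0.63 (SE, edgeR adjusted p = 0.18). Slc2a1, the glucose carrier of barrier endothelium and of many other cells, gave 2.39 ± 0.64 in the same comparison (edgeR adjusted p = 0.11). Day, code prefix and stage of these tumours cannot be told apart.

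In surrounding cells no member passed the test between stages. The counts called were 0 of 10 in each comparison, where edgeR called 1.48% of 17616 genes between late and early mice and 0% between late and asymptomatic and between early and asymptomatic mice. At an unadjusted p under 0.05 there were 0 higher and 1 lower of 10 between late and early mice, 1 higher and 3 lower between late and asymptomatic mice, and 0 higher and 1 lower between early and asymptomatic mice. Of all 17616 genes, 2902, 2822 and 645 were under that limit in the same comparisons, in this order. The members with the largest differences were Tek, Slco1a4 and Mfsd2a, lowest in late mice, and Angpt2, highest there.

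Tek was at 9.36, 4.99, 14.3 and 9.01 CPM in surrounding cells of the asymptomatic mice, at 6.10, 1.58, 3.25 and 7.37 CPM in the early mice, and at 2.51, 3.61, 2.24 and 3.48 CPM in the late mice. All late values were below all asymptomatic ones, the only member of the 10 for which groups of surrounding cells did not overlap. The share of all genes separated in this way was not counted, so the separation is not read as particular to Tek. The log2 fold change of late over asymptomatic mice was -1.67 ± 0.46 (SE, edgeR adjusted p = 0.15). Slco1a4 was at 24.4, 12.0, 49.5 and 48.8 CPM in the asymptomatic mice, at 13.6, 6.53, 7.82 and 44.2 CPM in the early mice, and at 5.27, 16.1, 11.4 and 13.2 CPM in the late mice, with overlap between all groups. Its log2 fold change of late over asymptomatic mice was -1.57 ± 0.62 (SE, edgeR adjusted p = 0.25).

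Angpt2 was at 21.2, 22.1, 10.9 and 5.68 CPM in surrounding cells of the asymptomatic mice, at 47.1, 21.1, 18.7 and 22.6 CPM in the early mice, and at 61.9, 56.2, 54.2 and 11.7 CPM in the late mice. Tumours 3054A, 3054B and 3054C were above every other library, and 3057E was near the lowest. The log2 fold change of late over asymptomatic mice was 1.62 ± 0.53 (SE, edgeR adjusted p = 0.19), and that of late over early mice 0.71 ± 0.52 (edgeR adjusted p = 0.50). Mfsd2a was at 32.4, 29.1, 85.2 and 85.9 CPM in the asymptomatic mice, at 110.0, 77.5, 43.6 and 36.9 CPM in the early mice, and at 38.2, 16.4, 8.26 and 24.8 CPM in the late mice. Its log2 fold change was -1.64 ± 0.54 for late over early mice and -1.41 ± 0.54 for late over asymptomatic mice (SE, edgeR adjusted p of 0.16 and 0.23). Flt1 was at 48.7, 32.9, 54.2 and 34.6 CPM, at 44.6, 35.0, 23.5 and 44.6 CPM, and at 67.7, 111, 63.0 and 19.9 CPM in asymptomatic, early and late mice, with 3054A, 3054B and 3054C the 3 highest libraries.

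The stage values of surrounding cells also turned on 3057E and on the tool. Without 3057E, edgeR called Tek lower and Angpt2 and Flt1 higher in late than in asymptomatic mice, at -1.77, 1.94 and 0.91 (adjusted p of 0.0395, 0.0164 and 0.0477), where 16.4% of all genes were called. It called Flt1 higher in late than in early mice at 1.08 (adjusted p = 0.0224), where 18.9% were. DESeq2 on all tumours called Tek lower and Angpt2 higher in late than in asymptomatic mice (adjusted p of 0.0153 and 0.0423, with 5.69% of all genes called). It called Mfsd2a lower in late than in early mice (adjusted p = 0.0452, with 6.52% called). The makeup of the pool moved with stage: OPC markers summed to 780 to 13191 CPM in late mice, against 7156 to 15039 CPM in early and 5439 to 15325 CPM in asymptomatic mice, and monocyte and macrophage markers to 1248 to 4649 CPM, against 320 to 876 and 250 to 1410 CPM. Their part in the results was not tested.

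To set the members against other endothelial genes, each level was expressed relative to the mean of the 16 other pan-endothelial genes in the same library, as a difference of log2(CPM + 1). Of this list Ramp2, Vwf and Erg were not called between the populations, so its mean is not a measure of vessels alone. Mfsd2a and Angpt2 were present in every glioma library, and the part of other cells in their relative levels was not tested. Pecam1 kept close values of 1.77 ± 0.23, 1.62 ± 0.38 and 1.85 ± 0.30 in asymptomatic, early and late mice (SD, n = 4 each), and Kdr of 1.39 ± 0.69, 1.52 ± 0.38 and 1.53 ± 0.58. Tek stood at -0.07 ± 0.33, -0.69 ± 0.58 and -1.23 ± 0.65, and Slco1a4 at 1.54 ± 0.77, 0.83 ± 1.04 and 0.35 ± 0.80. Angpt2 stood at 0.46 ± 0.95, 1.70 ± 0.24 and 2.11 ± 0.66, and Mfsd2a at 2.34 ± 0.77, 2.93 ± 0.60 and 1.12 ± 1.24. Abcb1a stood at 1.21 ± 0.58, 0.94 ± 0.57 and 0.68 ± 0.67, and Cldn5 at 1.11 ± 0.19, 0.85 ± 0.59 and 0.75 ± 0.47. Flt1 stood at 2.04 ± 0.17, 2.18 ± 0.22 and 2.62 ± 0.57. Mean relative levels of Tek, Slco1a4, Abcb1a and Cldn5 were thus lower at each later stage and those of Angpt2, Flt1 and Kdr higher. The step from asymptomatic to early mice was larger than the larger SD for Tek and Angpt2, and every other step of these 7 genes was within it. With counts scaled to the summed counts of these 16 genes, edgeR gave log2 fold changes of late over asymptomatic mice of -1.396 ± 0.52 for Tek, -1.30 ± 0.61 for Slco1a4 and 1.49 ± 0.48 for Angpt2 (SE, adjusted p of 0.34, 0.52 and 0.26), none of them called (0% of all genes were).

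**Figure D4:**
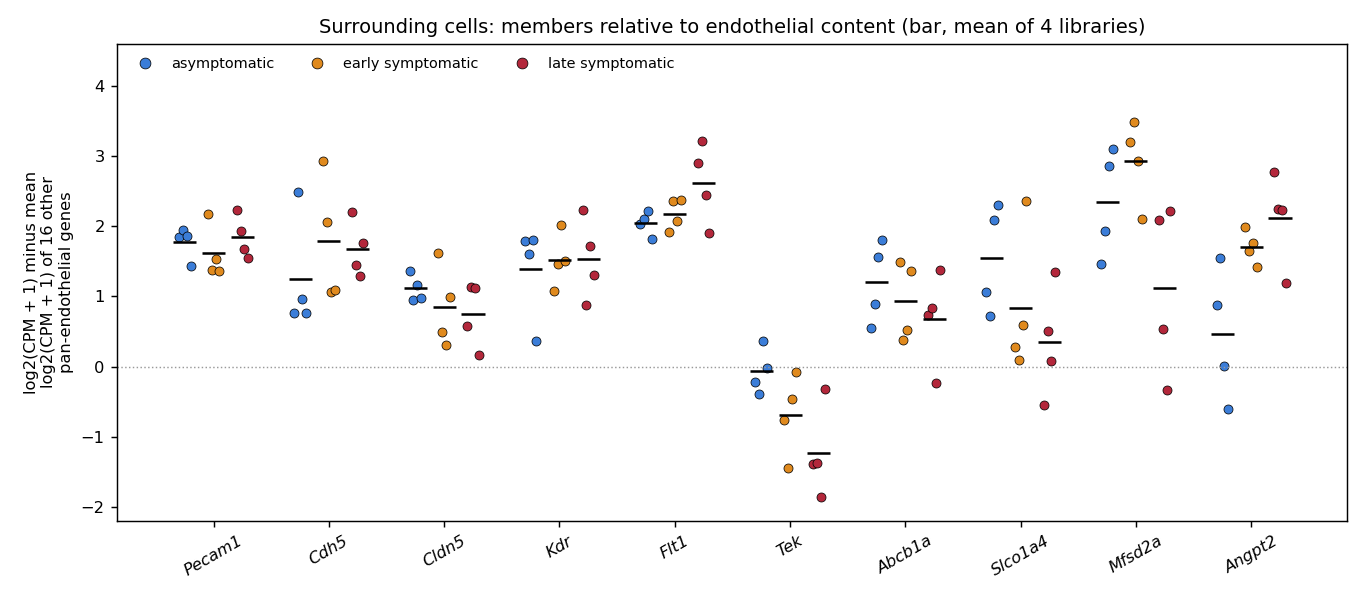
Level of each gene in the 12 surrounding libraries relative to the mean of 16 other pan-endothelial genes, as a difference of log2(CPM + 1), by stage with bars at the mean of 4. Means of Tek and Slco1a4 are lower and that of Angpt2 higher in late than in asymptomatic mice, with overlapping points in each of the 3 genes, while the means of Pecam1 and Kdr differ by less than their SD.

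Whether the stage differences were unlike in the 2 populations was tested as an interaction in all 24 libraries. No member was called, as was 0% of all 18810 genes in each of the 3 interactions. Flt1 had the smallest p among higher values, with a stage difference of late minus early that was larger in glioma than in surrounding cells by 3.57 ± 1.22 on the log2 scale (SE, edgeR adjusted p = 0.56). Without 3057E it was 3.61 and called (edgeR adjusted p = 0.041), where 4.51% of all genes were. With the replicate block on all tumours it was 2.58 ± 1.14 and not called (SE, edgeR adjusted p = 0.49). For Mfsd2a the late minus early difference was -0.47 ± 0.81 between the populations (SE, edgeR adjusted p = 0.96), and for Angpt2 it was 1.62 ± 0.83 (adjusted p = 0.80). At an unadjusted p under 0.05 there was 1 higher in the late against early interaction, 0 higher and 2 lower in late against asymptomatic, and 0 higher and 4 lower in early against asymptomatic. Of all 18810 genes, 1167, 1586 and 290 were under that limit in the same interactions, in this order. The 4 lower in early against asymptomatic were Slco1a4 at -6.22 ± 1.83, Tek at -2.93 ± 0.94, Cdh5 at -2.85 ± 1.18 and Abcb1a at -2.85 ± 1.27 (SE). Their unadjusted p by edgeR was 0.0026, 0.0049, 0.025 and 0.036, and the adjusted p 0.9999 for each. For Slco1a4 and Tek it was thus smaller than that of Flt1 in late against early, at 0.0076. The 4 early glioma libraries held 1 count of Slco1a4 and 4 of Tek in all. DESeq2 also called 0 members in each interaction, and 0 between early and asymptomatic mice in either population.

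Other genes of the same pathways, chosen by role, were counted beside the members, in the fit where 24.2% of all genes were called lower and 22% higher. Of 16 other pan-endothelial genes 13 were lower and 0 higher in glioma cells, among them Eng, a co-receptor of TGF-beta signalling, at -5.32 ± 0.40, and Tie1, the orphan partner of Tek, at -4.51 ± 0.44 (SE, edgeR adjusted p of 1.6e-09 and 3.8e-08). The 3 that did not pass were Ramp2 at 0.36 ± 0.18, Vwf at -0.50 ± 0.23 and Erg at -0.25 ± 0.34. Of 19 other barrier genes 12 were lower and 1 higher. The tight junction genes Lsr and Ocln gave -5.06 ± 0.51 and -4.56 ± 0.56, and Foxq1, a transcription factor of brain endothelium, -5.71 ± 0.50 (SE, edgeR adjusted p at most 7.1e-07). Slc2a1 gave -1.81 ± 0.39 (edgeR adjusted p = 0.00066). The efflux pump gene Abcg2 was the one higher in glioma cells, at 0.38 ± 0.12 (edgeR adjusted p = 0.013), and Slc7a5, Tfrc and Tjp1, which many cells use, did not pass.

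Among 11 tested genes of the VEGF and angiopoietin pathway 7 were lower and 0 higher in glioma cells. The co-receptors Nrp1 and Nrp2 gave -2.97 ± 0.28 and -2.18 ± 0.33, and Angpt1, the activating ligand of Tek, -1.60 ± 0.41 (SE, edgeR adjusted p at most 0.0032). Vegfa did not differ beyond its error, at 0.05 ± 0.36 (edgeR adjusted p = 0.92). Of 15 tip cell and leaky vessel genes 10 were lower and 1 higher, with Nid2 at -4.16 ± 0.33 and Apln at -2.27 ± 0.28 (SE, edgeR adjusted p at most 7.3e-07). Of 12 genes of the endothelial Wnt pathway 5 were lower and 3 higher, the share of higher ones being near that over all genes. Lef1, a transcription factor that acts in receiving cells, was lower at -3.50 ± 0.54 and the ligand Wnt7b higher at 0.96 ± 0.26 (SE, edgeR adjusted p of 1.8e-05 and 0.0046). Of 10 pericyte and smooth muscle genes 8 were lower and 1 higher, and the higher one, Cspg4, also marks OPC.

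Between stages few of these genes were called. In surrounding cells of late against early mice, Cxcr4, a chemokine receptor of tip cells and of leukocytes, was higher at 2.78 ± 0.54 (SE, edgeR adjusted p = 0.029). Rgs5, a pericyte gene, was lower there at -1.64 ± 0.35 (edgeR adjusted p = 0.041). The same comparison called 4 of 10 monocyte and macrophage genes higher, where 1.41% of all genes were, and their part in the Cxcr4 value was not tested. Pgf, a second ligand of Flt1, gave 2.12 ± 0.65, and Esm1, a tip cell gene, 2.94 ± 1.16, without passing (SE, edgeR adjusted p of 0.14 and 0.24). No other gene of the pan-endothelial, barrier, Wnt, VEGF and angiopoietin, tip cell, arterial, venous, adhesion and pericyte lists was called by edgeR between stages in either population.

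Over the 12 surrounding libraries, the genes most like Pecam1 were Eng and Tie1, with Pearson's r of 0.96 and 0.92 of log2(CPM + 1) among 10736 genes. Cldn5 was most like Fzd4, a receptor of endothelial Wnt signalling, with r = 0.97. Tek was most like Plpp1 and Car4 (r of 0.88 and 0.87), Abcb1a like Ly6c1 (0.89), and Slco1a4 like Plpp1 and Itm2a (0.91 and 0.90) after the pseudogene Dynlt1-ps1. Cdh5 was most like Stra6 (0.95), and Angpt2 like Fnip2 (0.97). Kdr, Flt1 and Mfsd2a were most like Zc3h11a (0.91), Pag1 (0.91) and Agpat3 (0.93). These are descriptions over libraries that share stage, sort and makeup of the pool.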

How the data were processed

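Poly(A) RNA of sorted glioma and surrounding cells was sequenced from 12 tumours, giving 24 libraries. Per the submitters' processing notes the tools were STAR 2.7.5c and RSEM 1.3.1, with mouse build GRCm38, and the authors deposited unscaled expected counts for each gene. The annotation release, the strand setting and any use of molecular identifiers are not given in the sources used here. Rounding to whole numbers shifted library totals by at most 95.2 counts. Totals of 9.08e+06 to 1.55e+07 make a level of 1 CPM about 10 counts, so levels near 0 rest on few counts, and their error covers counting as well as spread between tumours. No 2 libraries of a group were copies, with a chi-square per degree of freedom of at least 19.8.

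Population and stage defined 6 groups of 4 libraries. Early and late symptomatic mice were divided by the letters that end the sample descriptions, which also separate the days. The genes, the lists set beside them, the tests and most of the other settings were chosen with earlier results of these data known. P-values measure the spread between libraries within groups, from 12 mice. Outside the fits with the tumour as a block, the 2 libraries of a tumour were not treated as a pair.

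Counts were fitted with edgeR 4.0.16 (R 4.3.3), TMM scaling, a filter on low counts (minimum count 10) and robust quasi-likelihood tests. The SE given with edgeR values is the size of the log2 fold change divided by the square root of the test's F statistic. A gene was called at a Benjamini-Hochberg adjusted p under 0.05, with the adjustment made across the whole fit. Stages were compared within a population, and populations and interactions in all 24 libraries. In simulated counts with known changes, 4-fold changes were recovered for 100% of 50 genes between populations (18353 genes), for 70% between late and early surrounding cells (17184 genes) and for 60% between late and early gliomas (17533 genes). Changed genes were drawn above a minimum mean count, and simulated levels were means over all 24 libraries. The shares thus do not cover genes near 0 in 1 population. Alternatives were DESeq2 1.42.0, its size factors within edgeR, no count filter or one at 50, a spread without robust estimation, each tumour left out, 3108D and 3109D left out, all libraries in 1 fit, an endothelial covariate, the tumour as a block and another pseudocount. After the data were seen, scaling to endothelial counts and a fit without 3057E and 3229B were added. The tumour code pairs the libraries, since both come from the same tumour per the labels. Deviations of paired libraries correlated at 0.025 to 0.483. Glioma libraries 3108D and 3109D each correlated best with the other's code, so that a block with both exchanged was also run. Glioma libraries 3054A, 3057E and 3228D also correlated best with another code, those of 3228B, 3054A and 3057E in this order. The check alone thus does not decide which libraries belong together.

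All 10 genes were named in every comparison. Of each other list up to 4 genes with the smallest p were named, and others after their values were seen. The genes most like a member are those of highest r in surrounding cells. Gene positions are from GENCODE M21, which held 98.6% of the identifiers.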

Additional observations from a re-analysis of the deposited data

Results flagged for a closer look

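In 7 of 60 sets of 4 libraries, each set being 1 gene in 1 population and stage, a single library lay far from the other 3. Chance alone gives about 1 in 20 for independent sets of normally distributed values. The sets here share libraries and hold raw CPM, so that share is a rough guide only.

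Tumour 3108C gave 3 of these 7 libraries. Its surrounding cells held 53.7 CPM of Pecam1, the endothelial adhesion molecule, where the other 3 early libraries held 15.9 to 21.8 CPM. They held 47.1 CPM of Angpt2, where the other 3 held 18.7 to 22.6 CPM. Its glioma cells held 0.0888 CPM of Slco1a4, which is 1 count, where the other 3 early gliomas held none. With 3 libraries at 0, any count in the remaining library is flagged. Its surrounding cells were also the highest of the early mice for Cdh5, Cldn5, Kdr, Abcb1a and Mfsd2a, at 90.6, 35.98, 24.5, 33.0 and 109.98 CPM, without lying as far from the other 3.

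Kdr, the signalling receptor of Vegfa, was low in 1 library of each symptomatic glioma group. It was at 1.97 CPM in glioma cells of 3145A, where the other 3 early gliomas held 5.51 to 5.67 CPM. It was at 2.57 CPM in glioma cells of 3054C, where the other 3 late gliomas held 3.37 to 3.48 CPM. Cdh5 was at 5.17 CPM in glioma cells of asymptomatic tumour 3229B, where the other 3 held 0.375 to 1.09 CPM. Angpt2 was at 11.7 CPM in surrounding cells of late tumour 3057E, where the other 3 late libraries held 54.2 to 61.9 CPM.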

How the results depend on the processing

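No log2 fold change of a member that was called changed its sign under any alternative, and the settings that moved a count of called members by more than 1.5 times come first. With the replicate block, with or without 3108D and 3109D exchanged, 1 member (Mfsd2a) was called higher in glioma cells over all stages, against 0, and the block moved 1 other call, that of Abcb1a in asymptomatic mice. In surrounding cells DESeq2 called 1 member lower in late than in early mice, and 1 higher and 1 lower in late than in asymptomatic mice, against 0. In gliomas DESeq2 called 2 higher and 1 lower in late than in early mice and 1 higher in late than in asymptomatic mice. With all 24 libraries in 1 fit, 1 (Flt1) was called higher in late than in early gliomas and 1 (Tek, at -3.94 and not tested in the fit of 12) lower in late than in asymptomatic gliomas. Leaving out 1 tumour at a time gave 0 to 1 higher in late than in early surrounding cells, 0 to 2 higher and 0 to 1 lower in late than in asymptomatic surrounding cells, 0 to 2 higher and 0 to 1 lower in late than in early gliomas, 0 to 2 higher in late than in asymptomatic gliomas, and 0 to 1 higher in the late against early interaction. Each upper value is that without 3057E. Without 3057E and 3229B there were 1 higher in late than in early and 1 in late than in asymptomatic surrounding cells, 2 higher and 1 lower in late than in early gliomas, 2 higher in late than in asymptomatic gliomas, and 1 higher in each of the late against early and late against asymptomatic interactions. Smaller moves concerned glioma against surrounding cells. Without a count filter 8 members were called lower in early mice (Angpt2 lost, edgeR adjusted p = 0.0734) and 5 in asymptomatic mice (Flt1 and Slco1a4 lost, 0.117 and 0.0849), against 9 and 7. Abcb1a in asymptomatic mice was called lower by DESeq2 (adjusted p = 0.0264), and by edgeR without 3057E, without 3229B and without both (adjusted p of 0.0427, 0.037 and 0.0252). Without 3108D and 3109D the early calls of Flt1 and Angpt2 were lost (adjusted p of 0.0871 and 0.0815, edgeR), as was the asymptomatic call of Flt1 (0.0818). The cause was not tested. Among single members 35 values gained and 22 lost a call, and the relative level of Flt1 in early surrounding cells was 2.42 at a pseudocount of 0.25, against 2.18. Called values that moved by more than the limit without 1 tumour included Cdh5 without 3054C and Slco1a4 without 3054B in late mice (-6.11 and -5.88), and, in early mice, Cldn5 without 3108C and 3108D (-5.91 and -7.41) and Tek without 3109D (-6.28). The early calls of Angpt2 (-1.97) were lost without 3108C, 3109D or 3145A (adjusted p of 0.279, 0.0804 and 0.117, edgeR). Members near 0 in gliomas rest on few counts. The 60% to 70% of simulated 4-fold changes recovered between stages are of genes above a minimum mean count. That share does not cover members near 0 in gliomas.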
